A study of Cucumis melo with 6 samples.

Results

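The genes described here were silent in leaves of wild-type (WT) melon (Cucumis melo) and expressed in leaves of the double mutant lhp1ab. They were chosen by their raw read counts in the 6 libraries: at most 1 count in each of the 3 WT libraries and at least 10 counts in each of the 3 lhp1ab libraries. This rule found 89 of 28299 annotated genes, which is 0.314% of all genes and 1.08% of the 8231 genes with at most 1 count in each WT library. Counts of both genotypes selected the set, so its difference between the genotypes is given as a description, with no test. Both genotypes are of CharMONO, an inbred monoecious line of a cantaloupe (cantalupensis) cultivar type, and the mutant adds EMS-induced changes in both LHP1 genes, G1970A in Cmlhp1a and C1930T in Cmlhp1b, numbered along the genomic sequence from the ATG. All plants grew under glass at 60% relative humidity, in days of 16 h (27 °C) and nights of 8 h (21 °C), and strand-specific poly(A) libraries were made from 1 g of fresh leaf per sample. The labels name 1 double mutant with 1 allele of each gene, so effects of LHP1 loss and of other changes carried by that line cannot be told apart. For plant age and the number of plants per sample, the sources used here give nothing. The series calls the replicates biological, and the spread given below is that between these samples.

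LHP1 is a plant chromodomain protein. In Arabidopsis it binds histone H3 trimethylated at lysine 27, the mark that Polycomb complexes place on genes kept off in a given tissue or stage, and Arabidopsis lhp1 mutants express floral regulators in leaves. The files give gene model identifiers without names or products, and 0 of the 28299 identifiers occur in the reference gene table at hand, which is of another melon assembly. No gene is therefore described by its function, no sequence is shown, and neither the transcripts of Cmlhp1a and Cmlhp1b nor leaf markers were checked. In whole leaf, fewer or more cells expressing a gene and less or more RNA per cell cannot be told apart.

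Library totals were 20551374 to 22366054 counts in WT and 15335390 to 17647188 in lhp1ab. Levels are given as CPM, the read count scaled by the library total. The value of 1 read lay between 0.0447 and 0.0487 CPM in the WT libraries and between 0.0567 and 0.0652 CPM in the lhp1ab libraries. Where a WT library had 0 reads, up to 3 are allowed for, or 0.134 to 0.146 CPM. Such limits and all intervals below cover counting error only, since reads carry no molecular identifiers.

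Most genes silent in the WT leaf were silent in the mutant leaf too. Of the 8231 WT-silent genes, 7562 (91.9%) also had at most 1 count in each lhp1ab library, and 580 lay between that state and the 10 counts required here. The opposite rule, at least 10 counts in each WT library and at most 1 in each lhp1ab library, held for 23 genes, although the WT libraries were the deeper ones. Summed over the 89 genes, the WT libraries held 21, 20 and 27 reads, and the lhp1ab libraries held 7618, 7655 and 6114. No WT read was found for 39 of the genes, 1 read in all for 34, 2 reads for 14 and 3 reads for 2. For the 39 genes without a WT read, the observed lhp1ab level was 12.8 to 419 times a limit of 3 reads over the 3 WT libraries together, with a median of 42.8 times. These ratios make no allowance for counting error in the lhp1ab reads. All 89 genes passed the low-count filter of the edgeR quasi-likelihood test, and all 89 were called higher, where 36.9% of the 17988 tested genes were called higher. The rule fixed that count, so nothing is read from it.

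The limits of the rule cut through a continuous range of counts. Just inside, 6 genes had a lowest lhp1ab count of exactly 10. Among them were maker-Chr11-exonerate_est2genome-gene-91.21 on chromosome 11, with 1, 1 and 0 reads in WT and 13, 16 and 10 in lhp1ab, and maker-Chr5-exonerate_est2genome-gene-256.41 on chromosome 5, with 1, 0 and 0 reads in WT and 19, 10 and 15 in lhp1ab. Just outside, 6 WT-silent genes had a lowest lhp1ab count of 9. Examples are maker-Chr1-exonerate_est2genome-gene-36.62 on chromosome 1, with 1, 0 and 0 reads in WT and 13, 20 and 9 in lhp1ab, and maker-Chr3-exonerate_est2genome-gene-232.38 on chromosome 3, with none in WT and 12, 21 and 9 in lhp1ab. Likewise maker-Chr3-exonerate_est2genome-gene-66.36 on chromosome 3, had none in WT and 13, 10 and 9 in lhp1ab. A further 36 genes had 10 or more counts in every lhp1ab library and a highest WT count of 2. The most abundant of these, maker-Chr6-exonerate_est2genome-gene-143.22 on chromosome 6, had 2, 2 and 0 reads in WT and 239, 199 and 210 in lhp1ab, or 13.1 ± 1.63 CPM (SD, n = 3). It was followed by maker-Chr2-exonerate_est2genome-gene-267.17 on chromosome 2, with 0, 1 and 2 reads in WT and 176, 191 and 140 in lhp1ab, and by maker-Chr5-exonerate_est2genome-gene-5.9 on chromosome 5, with 1, 2 and 2 in WT and 156, 150 and 112 in lhp1ab.

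In the mutant leaf most of the 89 genes were expressed at a low level. Their mean over the lhp1ab libraries ranged from 0.607 to 76.4 CPM, with a median of 2.00 and quartiles of 1.10 and 3.84 CPM. A mean of at least 1 CPM was reached by 75 genes, at least 5 CPM by 19, at least 10 CPM by 9 and at least 20 CPM by 3. The sum over the 89 genes was 457.9, 433.8 and 398.7 CPM in lhp1ab replicates 1, 2 and 3, and 1.02, 0.964 and 1.21 CPM in the WT libraries. Few genes carried this sum: the top gene held 17.8% of it, the top 3 held 33.6% and the top 10 held 56.4%. To compare genes, levels were also divided by exon length (RPKM, CPM per kb of exon). On that scale the median lhp1ab level of the 89 genes was 2.08, and the median over all tested genes was 12.02. Of the tested genes, 14.3% lay below the median of the set, while 10 of the 89 lay above the median of tested genes.

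**Figure D1:**
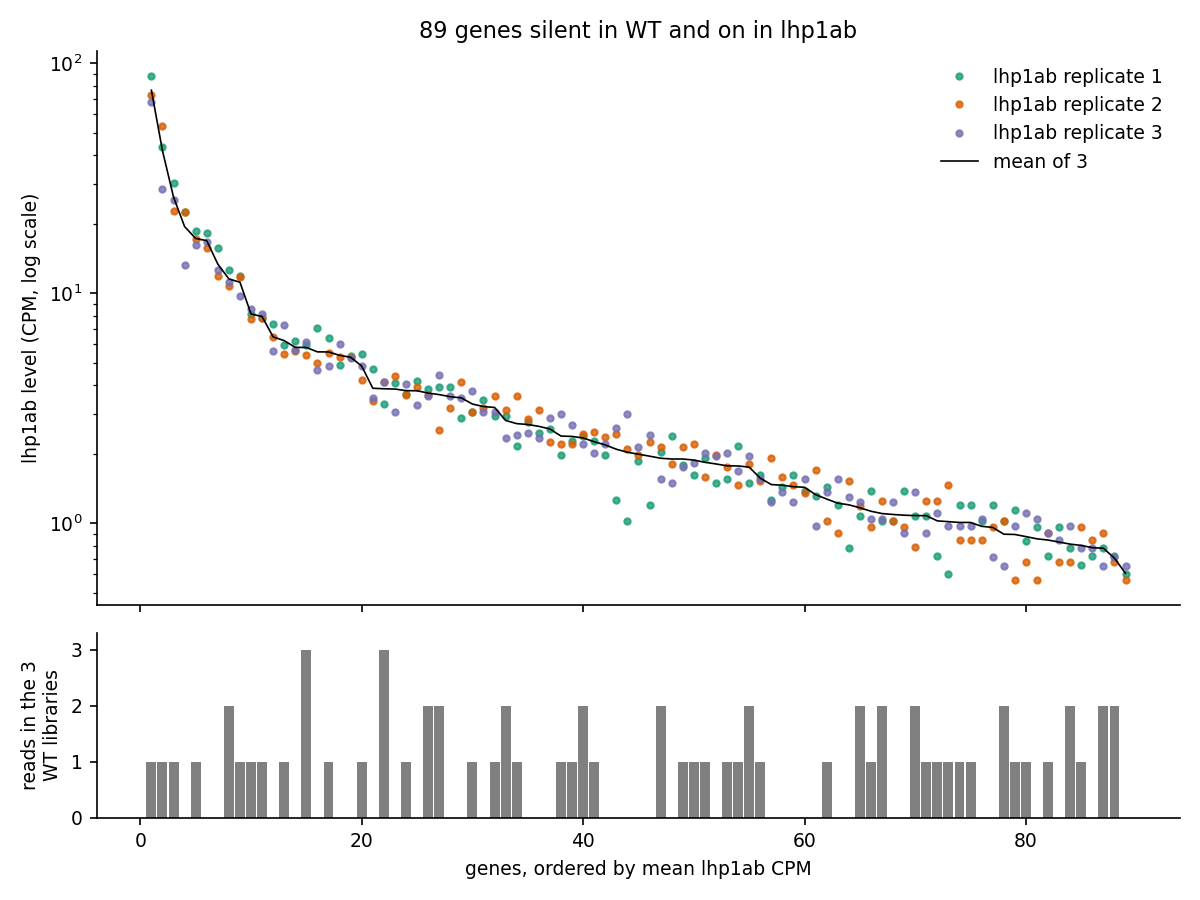
Upper panel: level of each of the 89 genes in the 3 lhp1ab libraries (points, CPM, log axis) with their mean (line), genes ordered by that mean. Lower panel: reads in the 3 WT libraries together (bars). The means fall from 76.4 to 0.607 CPM, and the WT bars lie between 0 and 3 reads over that whole range.

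The 10 genes with the highest level per kb of exon were mostly short models, and 7 of them had 1 or 2 exons. The first was maker-Chr11-exonerate_est2genome-gene-278.6 (chromosome 11, 27842715 to 27843289, plus strand), a single exon of 575 bases. It had 1, 0 and 0 reads in WT and 1466, 1286 and 1046 in lhp1ab, or 132.9 ± 18.1 RPKM (SD, n = 3). The second was maker-Chr2-exonerate_est2genome-gene-161.13 (chromosome 2, 16107887 to 16108721, minus strand, 3 exons, 378 bases of exon), with 1, 0 and 0 reads in WT and 720, 946 and 434 in lhp1ab, or 110.4 ± 33.7 RPKM (SD, n = 3). Replicate 2 was high and replicate 3 low, a 1.89-fold range in CPM. All of its exon bases lie opposite exons of the plus-strand gene maker-Chr2-exonerate_est2genome-gene-161.2 (16104482 to 16108873, 5 exons), which is outside the set. That gene had 0, 3 and 1 reads in WT and 4476, 4811 and 4348 in lhp1ab, and the reads of maker-Chr2-exonerate_est2genome-gene-161.13 amounted to 15.4% of its reads. Counting used strand, and the part that reads of the opposite transcript play in the minus-strand count was not tested.

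The third, maker-Chr7-exonerate_est2genome-gene-174.31 (chromosome 7, 17467176 to 17467412, plus strand), is a single exon of 237 bases. It had no WT read and 377, 400 and 203 reads in lhp1ab, or 82.4 ± 23.0 RPKM (SD, n = 3), with replicate 3 the low one. The observed level was 419 times the limit of 3 pooled WT reads, the largest such ratio among the 39 genes without a WT read. The neighbouring genes maker-Chr6-exonerate_est2genome-gene-33.9 and maker-Chr6-exonerate_est2genome-gene-33.7 on chromosome 6 followed at 78.5 ± 6.29 and 51.7 ± 5.61 RPKM (SD, n = 3) and are described with the local clusters. Next was the single-exon gene maker-Chr7-exonerate_est2genome-gene-261.19 (chromosome 7, 26169581 to 26170205, minus strand, 625 bases), with no WT read and 261, 210 and 194 in lhp1ab, or 21.5 ± 3.21 RPKM (SD, n = 3). Its observed level was 284 times the same limit.

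Multi-exon models were also among the 10. The gene maker-Chr11-exonerate_est2genome-gene-303.7 (chromosome 11, 30303986 to 30310526, minus strand) has 8 exons and a longest intron of 2.12 kb, and had 0, 0 and 1 reads in WT and 504, 403 and 391 in lhp1ab. The gene maker-Chr7-exonerate_est2genome-gene-210.8 (chromosome 7, 21061594 to 21064530, plus strand) has 5 exons, and had 0, 1 and 0 reads in WT and 310, 303 and 248 in lhp1ab. Their levels, 18.6 ± 2.69 and 17.6 ± 1.26 RPKM (SD, n = 3), differed by less than the spread between replicates. The gene maker-Chr10-exonerate_est2genome-gene-182.5 (chromosome 10, 18219973 to 18220932, plus strand, 2 exons) had 1, 0 and 1 reads in WT and 211, 190 and 172 in lhp1ab. Its level in lhp1ab was 13.6 ± 1.18 RPKM (SD, n = 3). The last of the 10, maker-Chr12-exonerate_est2genome-gene-198.0 on chromosome 12, stood at 13.3 ± 1.78 RPKM (SD, n = 3).

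The spread between the lhp1ab libraries is a description too, since the rule asked for 10 counts in each of them and so left out genes that were low in any one. The gene maker-Chr7-exonerate_est2genome-gene-261.9, for example, had no WT read and 23, 12 and 7 reads in lhp1ab, and was named here after its values were seen. Among the 89, the coefficient of variation (CV) of CPM over the lhp1ab libraries had a median of 13.9% and quartiles of 10.3% and 22.2%. Counting error alone, taken as 1 over the square root of the mean count, has a median of 17.4% over these genes, and the measured CV exceeded that counting value in 38 of the 89. The highest library was 1.32-fold above the lowest in the median gene and 2.94-fold at most. No lhp1ab replicate was high throughout: replicate 1 was the highest library for 32 genes, replicate 2 for 28 and replicate 3 for 29. The largest CV, 48.6%, was that of maker-Chr9-exonerate_est2genome-gene-110.15 (chromosome 9, 11006862 to 11009638, minus strand, 7 exons), with no WT read and 17, 37 and 46 reads in lhp1ab. It was followed by maker-Chr5-exonerate_est2genome-gene-200.4 on chromosome 5, at 43.0%, with 0, 0 and 1 reads in WT and 10, 26 and 15 in lhp1ab. The third, maker-Chr3-exonerate_est2genome-gene-18.2 (chromosome 3, 1815614 to 1816038, plus strand, 2 exons), had a CV of 34.8%, with no WT read and 21, 43 and 40 reads in lhp1ab. In all 3 of these genes replicate 1 was the lowest lhp1ab library.

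The most even genes varied less than counting error alone would give on average, as the lowest of 89 values can. The smallest CV, 1.27%, belonged to maker-Chr11-exonerate_est2genome-gene-251.37 on chromosome 11, with no WT read and 89, 93 and 80 reads in lhp1ab. For maker-Chr4-exonerate_est2genome-gene-248.9 on chromosome 4 it was 2.43%, with 0, 1 and 0 reads in WT and 130, 138 and 125 in lhp1ab. For maker-Chr3-exonerate_est2genome-gene-272.8 on chromosome 3 it was 2.99%, with 0, 0 and 1 reads in WT and 27, 27 and 24 in lhp1ab. The counting CVs of these 3 genes were 10.7%, 8.74% and 19.6%.

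In exon structure the set stood between genes that stayed silent and genes with reads in leaf, and in most measures near all annotated genes. A single exon was annotated for 24 of the 89 genes (27.0%, exact 95% interval 18.1% to 37.4%), for 47.9% of the 7562 genes silent in both genotypes and for 15.5% of the 17988 tested genes. Models of 6 or more exons made up 17 (19.1%), against 11.2% of genes silent in both genotypes and 42.4% of tested genes. The median exon number was 3, against 2 and 5. The median summed exon length was 1022 bases with quartiles of 575 and 1399, against medians of 389 bases in genes silent in both genotypes and 1601 in tested genes. Exon lengths under 500 bases were found in 22.5% of the set and in 60.5% of genes silent in both genotypes. Over all 28299 annotated genes, 26.2% had a single exon and 24.1% had under 500 bases, with medians of 3 exons and 1161 bases. These values lay near those of the set, while 6 or more exons were more frequent over all genes, at 31.6%. At a given level a longer gene gathers more reads, so the limit of 10 counts acts on length as well, and its part in this comparison was not tested.

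**Figure D2:**
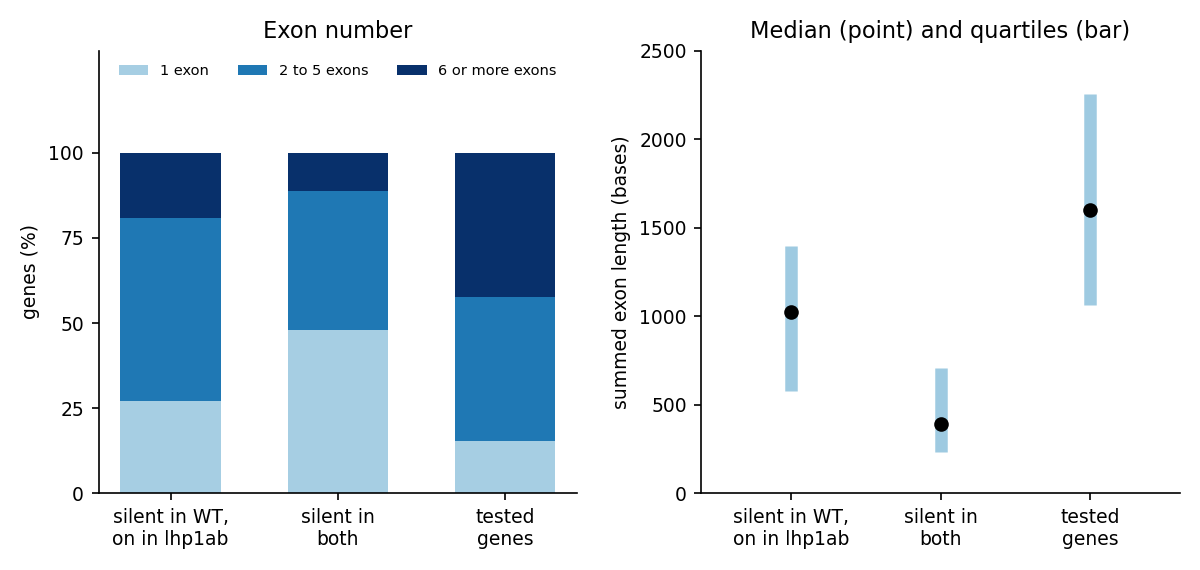
Left: shares of genes (percent) with 1, 2 to 5, and 6 or more exons among the 89 genes, 7562 genes silent in both genotypes and 17988 tested genes. Right: summed exon length in bases, median (point) and quartiles (bar). On both measures the 89 genes lie between the other sets, with a median length of 1022 bases against 389 and 1601.

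The models ranged widely. The most exons, 10, belonged to maker-Chr2-exonerate_est2genome-gene-149.0 (chromosome 2, 14901703 to 14910640, plus strand, longest intron 3999 bases), with 1, 0 and 0 reads in WT and 38, 39 and 41 in lhp1ab. Next, with 9 exons each, were maker-Chr11-exonerate_est2genome-gene-9.6 (chromosome 11, 894533 to 900263, minus strand), with 0, 0 and 1 reads in WT and 38, 44 and 31 in lhp1ab, and maker-Chr6-exonerate_est2genome-gene-20.0 (chromosome 6, 1989926 to 1996765, plus strand), with 0, 0 and 1 in WT and 51, 54 and 58 in lhp1ab. The largest exon length, 3817 bases in 6 exons, was that of maker-Chr4-exonerate_est2genome-gene-248.9 (24876086 to 24881108, minus strand), one of the most even genes above. It was followed by maker-Chr3-exonerate_est2genome-gene-279.23 (chromosome 3, 27979826 to 27984752, minus strand, 6 exons, 2899 bases), with no WT read and 23, 17 and 14 reads in lhp1ab. At 0.375 RPKM the latter was the lowest of the set per kb of exon. The shortest model had 145 bases of exon. The median level was 3.05 RPKM in the 24 single-exon genes, 1.95 in the 48 genes with 2 to 5 exons and 1.61 in the 17 with 6 or more, while the medians in CPM were 1.88, 1.91 and 2.39. Since the rule asks for 10 reads whatever the length, short models could enter only at a higher level per kb.

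Overlap with another gene model concerned 8 of the 89 genes. On the same strand, where reads over several genes were counted for each, 6 genes (6.74%) overlapped another model, against 15.8% of genes silent in both genotypes and 3.91% of tested genes. The share over all annotated genes, 7.46%, was close to that of the set. In both pairs formed within the set the reads may be those of 1 transcript, so the 89 models stand for 87 separate places. The chromosome 11 pair maker-Chr11-exonerate_est2genome-gene-251.36 and maker-Chr11-exonerate_est2genome-gene-251.37 (25097787 to 25099592 together, minus strand, 4 exons each) shares 967 exon bases, with no WT read in either and with 103, 99 and 87 against 89, 93 and 80 reads in lhp1ab. The chromosome 9 pair maker-Chr9-exonerate_est2genome-gene-210.26 and maker-Chr9-exonerate_est2genome-gene-210.25 (21053023 to 21053715 together, minus strand) shares 655 exon bases and had identical counts, 0, 0 and 1 in WT and 20, 15 and 15 in lhp1ab.

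Partners outside the set were close to silent in WT too. The gene maker-Chr5-exonerate_est2genome-gene-256.41 shares 744 of its 1140 exon bases with maker-Chr5-exonerate_est2genome-gene-256.37, which had 2, 3 and 0 reads in WT and 31, 25 and 27 in lhp1ab. The gene maker-Chr2-exonerate_est2genome-gene-149.0 shares 119 exon bases with maker-Chr2-exonerate_est2genome-gene-149.1, which had no WT read and 0, 2 and 2 reads in lhp1ab. On the opposite strand, 2 genes overlapped another model (2.25%, against 9.56% of genes silent in both genotypes and 13.5% of tested genes), maker-Chr2-exonerate_est2genome-gene-161.13 above and maker-Chr6-exonerate_est2genome-gene-143.24 on chromosome 6. Both opposite genes were called higher in lhp1ab, maker-Chr2-exonerate_est2genome-gene-161.2 with an edgeR adjusted p of 1.73e-11 and maker-Chr6-exonerate_est2genome-gene-143.1 with one of 1.45e-09. Of all tested genes, 36.9% were called higher. Both opposite genes had few WT reads and passed the low-count filter only through their lhp1ab reads, which favours such a call.

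Along the chromosomes the 89 genes lay more often toward the ends than in the middle. Of the 89, 67 (75.3%) lay in the outer 25% at either end of the annotated chromosomes, as did 75.5% of tested genes and 42.0% of genes silent in both genotypes. The median number of other genes within 100 kb was 23, against 22 for tested genes and 12 for genes silent in both genotypes. The last 10% of the chromosomes held 21 of the genes (23.6%), against 20.4% of tested genes and 6.88% of genes silent in both genotypes. The first 10% held 14 (15.7%), against 20.3% of tested genes and 6.24% of genes silent in both genotypes. Between 20% and 40% of the way along, the shares in the 2 bins were 3.37% and 7.87%, against 6.32% and 4.20% of tested genes. None of these differences was tested. Each of the 12 chromosomes held at least 3, with 12 on chromosome 6 and 12 on chromosome 11. As a share of a chromosome's WT-silent genes they made up 0.498% on chromosome 10 and 0.554% on chromosome 1 at the low end, and 1.54% on chromosome 7 and 1.55% on chromosome 11 at the high end. These shares rest on 3 to 12 genes each and were not tested. The plus strand carried 52 of the 89 (58.4%).

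**Figure D3:**
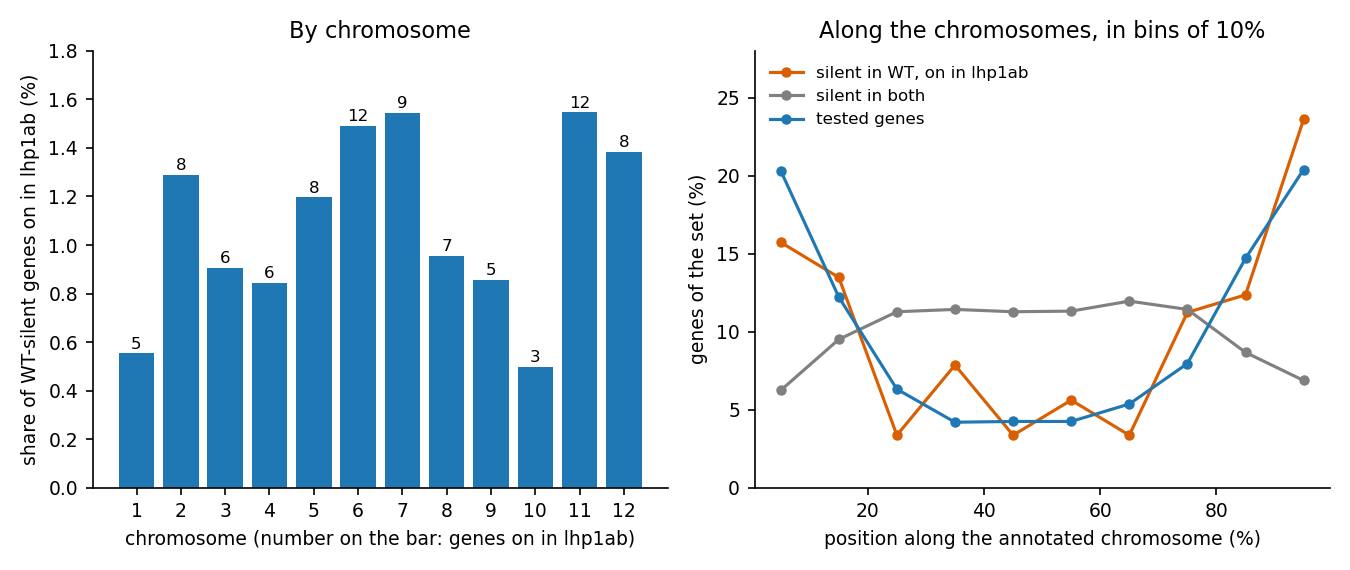
Left: WT-silent genes that were on in lhp1ab, in percent of the WT-silent genes of each chromosome, with the number of genes above each bar. Right: position along the annotated chromosome in bins of 10%, as percent of each set, for the 89 genes, genes silent in both genotypes and tested genes. The 89 genes are most frequent toward the chromosome ends, with 75.3% in the outer 25% at either end against 75.5% of tested genes, though single bins differ, and genes silent in both genotypes are spread over the middle.

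Most of the genes stood alone. No other gene of the set lay within 50 kb of 72 of the 89, and the median distance to the nearest one was 543 kb. The remaining 17 formed 8 local clusters, of which 2 are the overlapping pairs above, leaving 13 genes in 6 clusters of separate models. The cluster with most genes held 3 within 7.97 kb of chromosome 6 (3322090 to 3330064), all on the plus strand with 2 exons each and with no other gene between them. The first, maker-Chr6-exonerate_est2genome-gene-33.7, had 0, 1 and 0 reads in WT and 199, 208 and 150 in lhp1ab. The second, maker-Chr6-exonerate_est2genome-gene-33.9, 2.27 kb further, had none in WT and 306, 277 and 257 in lhp1ab. The third, maker-Chr6-exonerate_est2genome-gene-33.10, another 3.97 kb further, had 0, 0 and 1 in WT and 33, 39 and 46 in lhp1ab. The first and second have exons of equal length, 22 and 194 bases, and the third has exons of 25 and 368 bases. No sequence was at hand to tell whether the equal models are near-identical copies. Only reads with a mapping quality of at least 30 were counted, and what became of reads that match both models was not checked, so their counts are uncertain.

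Genes around this chromosome 6 cluster moved in both directions. Within 50 kb, 18 genes outside the set were annotated and 10 were tested by edgeR, of which 7 were called higher (5 of them at least 2-fold) and 3 lower (2 at least 2-fold). Over all tested genes, 36.9% were called higher (16.7% at least 2-fold) and 38.5% lower (14.4% at least 2-fold). The counts around this and the other clusters are small, and their difference from these shares was not tested. Upstream on the same strand, maker-Chr6-exonerate_est2genome-gene-33.0 (2 exons) had 71, 83 and 92 reads in WT and 2369, 2235 and 1847 in lhp1ab, a log2 fold change of 5.12 (SE 0.11, edgeR adjusted p = 5.65e-11). Downstream on the same strand, maker-Chr6-exonerate_est2genome-gene-33.11 (4 exons) had 166, 149 and 224 reads in WT and 1943, 1860 and 1595 in lhp1ab, a log2 fold change of 3.74 (SE 0.11, edgeR adjusted p = 4.19e-10). The next gene beyond it, maker-Chr6-exonerate_est2genome-gene-33.25 on the minus strand, had 254, 256 and 242 reads in WT and 28, 37 and 30 in lhp1ab, a log2 fold change of -2.57 (SE 0.13, edgeR adjusted p = 2.41e-08). For all 3 of these genes the WT and lhp1ab libraries did not overlap, which goes with changes of this size. How often that held over all tested genes was not computed.

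The second chromosome 6 cluster, over 50.8 kb (14307981 to 14358827), held single-exon genes on opposite strands. The minus-strand gene maker-Chr6-exonerate_est2genome-gene-143.24 had 0, 0 and 1 reads in WT and 36, 63 and 37 in lhp1ab, and the plus-strand gene maker-Chr6-exonerate_est2genome-gene-143.17 had none in WT and 118, 88 and 71 in lhp1ab. Within 50 kb, 13 other genes were annotated, of which 7 were silent in both genotypes and 4 were tested. All 4 were called higher, where 36.9% of all tested genes were. Of the 4, 3 were at least 2-fold higher, where 16.7% of all tested genes were. Those 3 had at most 67 reads in any WT library. The gene opposite maker-Chr6-exonerate_est2genome-gene-143.24, maker-Chr6-exonerate_est2genome-gene-143.1, went from 2, 6 and 2 reads in WT to 220, 276 and 251 in lhp1ab, and the reads of maker-Chr6-exonerate_est2genome-gene-143.24 amounted to 18.2% of its reads. What part of the minus-strand count comes from that transcript was not tested. The second was maker-Chr6-exonerate_est2genome-gene-143.22, described above as just outside the rule. Like maker-Chr6-exonerate_est2genome-gene-143.1, it passed the low-count filter only through its lhp1ab reads, which favours a call of higher. The third, maker-Chr6-exonerate_est2genome-gene-144.43 (14397046 to 14398157, minus strand, 2 exons), went from 50, 33 and 67 reads in WT to 8224, 7108 and 6225 in lhp1ab, a log2 fold change of 7.58 (SE 0.17, edgeR adjusted p = 7.67e-11).

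The chromosome 5 cluster (20022527 to 20030789) is a pair of like models on the plus strand. The gene maker-Chr5-exonerate_est2genome-gene-200.4 has exons of 1007 and 878 bases, and maker-Chr5-exonerate_est2genome-gene-200.6, 4.29 kb further, has exons of 1019 and 876 bases. The second had 1, 0 and 0 reads in WT and 24, 18 and 21 in lhp1ab. Whether they are copies was not checked, so their counts too are uncertain. Of 4 tested genes within 50 kb, 2 were called lower and 2 higher, where 38.5% and 36.9% of all tested genes were. Both of the higher ones were plus-strand genes with 2 exons. These were maker-Chr5-exonerate_est2genome-gene-200.2, with a log2 fold change of 1.42 (SE 0.061, edgeR adjusted p = 5.15e-09), and maker-Chr5-exonerate_est2genome-gene-200.9, which went from 3, 3 and 0 reads in WT to 24, 21 and 16 in lhp1ab. The latter passed the low-count filter only through its lhp1ab reads, which favours a call of higher.

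Chromosome 12 held 2 clusters. In the first (19794471 to 19800954), the plus-strand gene maker-Chr12-exonerate_est2genome-gene-198.0 had no WT read and 122, 114 and 86 in lhp1ab. The minus-strand gene maker-Chr12-exonerate_est2genome-gene-198.31, 4.20 kb away with 2 exons, had 1, 1 and 1 reads in WT and 99, 95 and 94 in lhp1ab. Of 3 tested genes within 50 kb, 1 was called higher and 2 lower. In the second (23599035 to 23601235), the plus-strand single-exon models maker-Chr12-exonerate_est2genome-gene-236.2 and maker-Chr12-exonerate_est2genome-gene-236.3 lie 0.896 kb apart. Neither had a WT read, and they had 12, 15 and 12 against 20, 17 and 11 reads in lhp1ab. Of 13 tested genes within 50 kb, 7 were called higher, 4 of them at least 2-fold, and 2 were called lower, both at least 2-fold. Over all tested genes, 36.9% were called higher (16.7% at least 2-fold) and 38.5% lower (14.4% at least 2-fold).

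On chromosome 7 (8160466 to 8162794), maker-Chr7-exonerate_est2genome-gene-81.31 with 3 exons and maker-Chr7-exonerate_est2genome-gene-81.28 with 5 exons lie on the plus strand with a gap of 4 bases. They had 20, 16 and 24 against 18, 22 and 14 reads in lhp1ab, with 0 against 1 read in WT. Whether they are parts of 1 gene was not tested. The 1 tested gene within 50 kb was not called. Around the overlapping pairs, the 1 tested gene near the chromosome 9 pair was called lower, and the 1 near the chromosome 11 pair was not called, where 13 of 14 other genes within 50 kb were silent in both genotypes.

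The genes flanking the set were no part of the rule, so the edgeR quasi-likelihood test applies to them. The nearest gene without overlap was taken on each side of every member, at a median gap of 5.39 kb. This gave 172 different genes, 9 of them in the set and 163 outside it. Of the 163, 62 had too few reads to be tested, and 39 of the 163 were silent in both genotypes. Of the 101 tested flanking genes, 54 (53.5%) were called higher in lhp1ab, where 36.9% of all tested genes were, and 29 (28.7%) were called lower, where 38.5% of all tested genes were. At least 2-fold higher were 37 of the 101 (36.6%, against 16.7% of all tested genes), and at least 2-fold lower were 11 (10.9%, against 14.4%). Their median log2 fold change was 0.41, against -0.019 over all tested genes. The median WT level of the tested flanking genes was 19.9 CPM, and that of all tested genes outside the set was 20.6 CPM. Genes flanking those silent in both genotypes stood closer to the shares over all genes, with 37.6% of 4818 tested genes called higher and 17.6% at least 2-fold higher. These shares are set side by side as descriptions, and the difference between them was not tested. Flanking genes with few WT reads passed the low-count filter only through their lhp1ab reads, which favours a call of higher. Of the 97 flanking genes with a mean above 3 counts per WT library, 50 (51.55%) were called higher and 33 (34.0%) at least 2-fold higher. The shares over all 17764 genes tested at that limit were 36.15% and 15.61%. That limit kept some genes that passed the low-count filter only through their lhp1ab reads. An example is maker-Chr6-exonerate_est2genome-gene-62.6, with 7, 6 and 10 reads in WT and 84, 70 and 63 in lhp1ab. The limit therefore does not remove that effect of the filter.

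Beyond the nearest gene the shares varied from neighbour to neighbour, and no trend with distance was tested. Of the tested genes outside the set, 53.5% of first neighbours, 42.9% of second and 48.2% of the third were called higher, and for neighbours 4 to 10 the share lay between 29.0% and 43.5%. At least 2-fold higher were 36.6%, 25.7% and 30% of neighbours 1, 2 and 3, and 14.1% to 19.4% of neighbours 4 to 10. At least 2-fold lower were 10.9%, 10.5% and 11.8% of neighbours 1, 2 and 3, and 14.05% to 20.8% of neighbours 4 to 10, where 14.4% of all tested genes were. Around genes silent in both genotypes, the share called higher lay between 35.5% and 37.6% at all 10 distances. By length, 29 of 71 tested flanking genes within 10 kb (40.9%) were at least 2-fold higher, and 8 of 30 further away (26.7%).

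**Figure D4:**
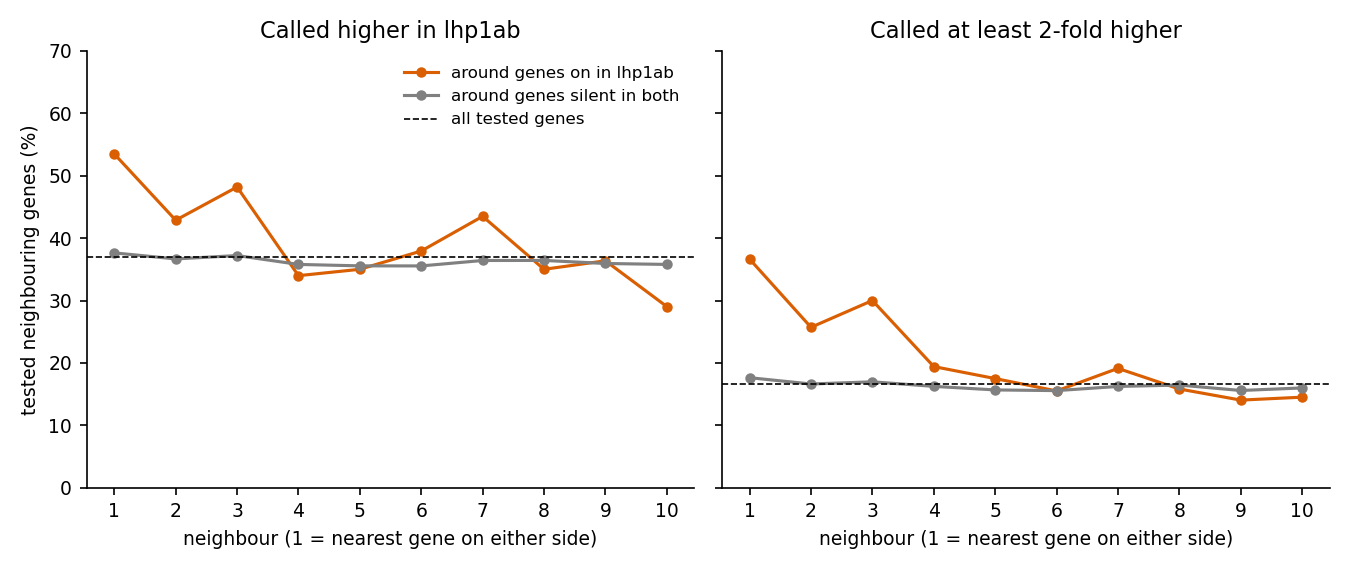
Percent of tested neighbouring genes called higher (left) and at least 2-fold higher (right) in lhp1ab by edgeR, by order of distance on either side of the 89 genes and of genes silent in both genotypes, genes of the set left out. Dashed lines give the shares over all tested genes, 36.9% and 16.7%. The first 3 neighbours of the 89 genes lie above these lines in both panels, and later neighbours lie on either side of them.

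The shares by strand are given side by side, and the difference between strands was not tested. Of 57 tested flanking genes on the same strand as the gene of the set, 35 (61.4%) were called higher, 27 (47.4%) at least 2-fold, and their median log2 fold change was 0.71. Of 24 in divergent orientation, with the 5′ ends facing, 11 (45.8%) were called higher, 7 (29.2%) at least 2-fold, and 9 lower, with a median of 0.035. Of 20 in convergent orientation, with the 3′ ends facing, 8 (40%) were called higher, 3 (15%) at least 2-fold, and 7 lower, with a median of 0.045. The same-strand genes had a lower median WT level, 8.43 CPM against 26.6 CPM in divergent and 31.2 CPM in convergent genes, and the part of that level in the difference was not tested. Same-strand neighbours of genes silent in both genotypes were called higher in 38.6% of 2771 tested genes.

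**Figure D5:**
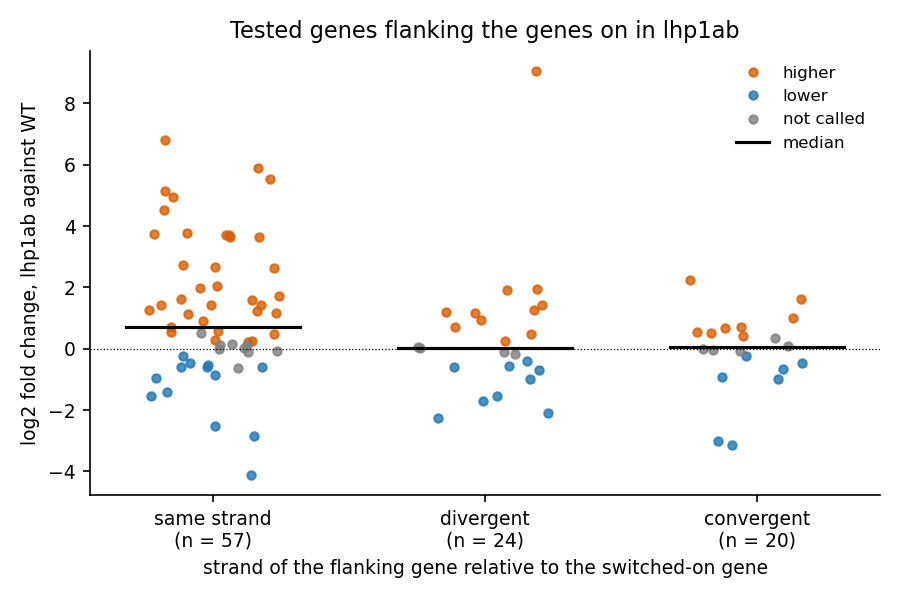
Log2 fold change (lhp1ab against WT, edgeR) of the 101 tested genes flanking the set, by strand relative to the gene of the set. Each point is a gene coloured by its call, and bars are medians. The same-strand genes reach from -4.12 to 6.81 with a median of 0.71, the medians of the other orientations lie near 0, and the highest point, at 9.06, is a divergent gene.

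The 3 flanking genes with the largest changes had at most 32 reads in any WT library. On chromosome 10, maker-Chr10-exonerate_est2genome-gene-182.19 (18213429 to 18214555, minus strand, 2 exons) lies 5.42 kb from maker-Chr10-exonerate_est2genome-gene-182.5 in divergent orientation. It had 6, 9 and 11 reads in WT and 3879, 3518 and 3163 in lhp1ab, or 0.406 ± 0.103 against 212.9 ± 17.9 CPM (SD, n = 3), a log2 fold change of 9.06 (SE 0.15, edgeR adjusted p = 2.18e-11). On chromosome 7, maker-Chr7-exonerate_est2genome-gene-261.18 (26167840 to 26168052, minus strand, 1 exon) lies 1.53 kb from maker-Chr7-exonerate_est2genome-gene-261.19 on the same strand. It had 25, 27 and 32 reads in WT and 2762, 2282 and 2065 in lhp1ab, a log2 fold change of 6.81 (SE 0.16, edgeR adjusted p = 7.23e-11). On chromosome 11, maker-Chr11-exonerate_est2genome-gene-230.32 (23047546 to 23051718, plus strand, 6 exons) lies 3.12 kb from maker-Chr11-exonerate_est2genome-gene-230.31, a same-strand gene of the set with no WT read and 68, 77 and 47 in lhp1ab. It had 2, 3 and 8 reads in WT and 200, 216 and 178 in lhp1ab, a log2 fold change of 5.88 (SE 0.24, edgeR adjusted p = 3.05e-09). In each of these places the flanking gene had more lhp1ab reads than the gene of the set. Both maker-Chr10-exonerate_est2genome-gene-182.19 and maker-Chr11-exonerate_est2genome-gene-230.32 passed the low-count filter only through their lhp1ab reads, which favours a call of higher.

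The flanks of a gene did not always move the same way. Of the 32 genes whose flanks were both tested and outside the set, 9 had both called higher, 3 had both called lower and 9 had 1 of each. Both flanks were at least 2-fold higher for 5 genes and at least 2-fold lower for 0. Over all tested genes, 36.9% were called higher (16.7% at least 2-fold) and 38.5% lower (14.4% at least 2-fold). Such pairs were not counted around other genes, so whether these numbers are unusual was not tested. The first of the 5 was maker-Chr1-exonerate_est2genome-gene-342.13 (chromosome 1, 34268263 to 34270351, minus strand, 6 exons), with 0, 0 and 1 reads in WT and 49, 63 and 47 in lhp1ab, whose flanks lie within 1.01 kb on the same strand. Its 3′ neighbour maker-Chr1-exonerate_est2genome-gene-342.12 went from 25, 25 and 38 to 119, 150 and 147 reads (log2 fold change 2.65), and its 5′ neighbour maker-Chr1-exonerate_est2genome-gene-342.14 from 1, 2 and 0 to 24, 34 and 32 (log2 fold change 5.13). The second was the single-exon gene maker-Chr6-exonerate_est2genome-gene-62.5 (chromosome 6, 6205350 to 6205532, minus strand), with 0, 0 and 1 reads in WT and 12, 22 and 17 in lhp1ab. Its same-strand neighbours maker-Chr6-exonerate_est2genome-gene-62.4 and maker-Chr6-exonerate_est2genome-gene-62.6 had log2 fold changes of 1.61 and 3.63. Both maker-Chr1-exonerate_est2genome-gene-342.14 and maker-Chr6-exonerate_est2genome-gene-62.6 had few WT reads. They passed the low-count filter only through their lhp1ab reads, which favours a call of higher.

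For the other 3, the smaller of the changes beside the gene was 1.18 or less on the log2 scale. The neighbours of maker-Chr3-exonerate_est2genome-gene-272.8 (27288383 to 27289147, plus strand, 4 exons), both on its strand, were maker-Chr3-exonerate_est2genome-gene-272.7 and maker-Chr3-exonerate_est2genome-gene-273.0, with log2 fold changes of 1.73 and 1.18. The gene maker-Chr5-exonerate_est2genome-gene-32.5 (chromosome 5, 3233143 to 3235307, plus strand, 4 exons) had no WT read and 13, 27 and 20 in lhp1ab. Its neighbours maker-Chr5-exonerate_est2genome-gene-32.28 and maker-Chr5-exonerate_est2genome-gene-32.6 had log2 fold changes of 1.16 and 2.06. The latter also passed the low-count filter only through its lhp1ab reads. The gene maker-Chr1-exonerate_est2genome-gene-23.11 (chromosome 1, 2354226 to 2356487, minus strand, 3 exons) had 1, 0 and 0 reads in WT and 91, 74 and 74 in lhp1ab, with log2 fold changes of 1.0 and 1.26 in its neighbours maker-Chr1-exonerate_est2genome-gene-23.5 and maker-Chr1-exonerate_est2genome-gene-23.6. At the other end, the lowest flanking gene was maker-Chr5-exonerate_est2genome-gene-256.47, named after its value was seen, 23.1 kb from maker-Chr5-exonerate_est2genome-gene-256.41 on the same strand, with a log2 fold change of -4.12.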

How the data were processed

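The authors deposited a raw count for each gene in each library. Per the file headers, featureCounts 1.6.4 made them with these settings: exons grouped by gene, reverse-stranded (setting 2), mapping quality of at least 30, multi-mapping reads allowed, and reads over several genes counted for each. The annotation is a liftover onto melon genome release 4.0, the build of all coordinates. The submitters' processing notes also name STAR, DESeq2, Trimmomatic 0.38 and R 3.5.1.

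From these counts, CPM, RPKM, overlaps, clusters (gaps up to 50 kb) and flanking genes were computed. All 28299 genes entered edgeR 4.0.16 (R 4.3.3; quasi-likelihood test, two-sided, TMM, default low-count filter, Benjamini-Hochberg adjusted p of 0.05), checked on simulated counts. Alternatives were DESeq2 1.42.0, other normalizations, no filter, a replicate block, each library left out, and other limits. No replicate pair agreed within sampling noise (chi-square per degree of freedom 2 to 10). Members, lists and the rule for named genes (extremes of level, CV, exons and flank change, the rule's limits, and all clusters) were chosen with earlier results of these data known.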

Additional observations from a re-analysis of the deposited data

How the results depend on the processing

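The number of genes depends on the limits: 25 with at most 0 and at least 20 counts, 134 with at least 5 counts, 177 with at most 3 WT counts, and 104 (87 of them shared) in libraries thinned to equal totals. The opposite rule then gave 3, 55, 81 and 20 genes. Under the strictest limits, 40% had a single exon and the median exon length was 800 bases. Without 1 library there were 94 to 107 genes, with 17 to 25 in local clusters, a median of 1.973 to 2.257 CPM and 2.044 to 2.135 RPKM, 26.6% to 28.97% with a single exon, a median of 3 exons and 983 to 1030 bases. The cause was not tested.

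Of the flanking genes, leaving out 1 library gave 53 to 57 higher, 28 to 30 lower, 38 to 42 at least 2-fold higher and 11 to 14 at least 2-fold lower. Same-strand flanks alone gave 35 higher, 13 lower and 5 at least 2-fold lower, as fewer genes were counted, and flanks within 10 kb gave 6 at least 2-fold lower. Taking the nearest tested gene on each side gave 78 higher, 54 at least 2-fold higher and 48 lower among 160. Leaving out genes with a mean of at most 3 counts per WT library, a choice made after seeing the data, left 50 of 97 higher (51.55%, against 36.15% of all genes tested at that limit). Some genes that passed the low-count filter only through their lhp1ab reads remained at that limit. DESeq2 called 64 of 122 higher (52.46%, against 33.08% of all genes it tested). With the replicate block the counts were 53 higher, 28 lower, 37 and 11. The replicate numbers did not pair the samples (correlations of deviations 0.00346, 0.0933 and -0.123). Depth limits the set to genes above about 10 reads per library.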
